A study of Mus musculus with 6 samples.

Results

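Cadherins and protocadherins, the calcium-dependent cell-adhesion receptors of the cadherin superfamily, were compared between 3 mesenchymal cell populations sorted from mouse back skin. The genes were all those whose symbol starts with Cdh followed by a digit or with Pcdh, 93 of the 24529 genes in the deposited table, and 89 of them had a value above 0 in at least 1 library. The populations were the dermal sheath (DS), the smooth-muscle-like cup of cells around the hair follicle; the dermal papilla (DP), the signalling cells at its base; and dermal fibroblasts (DF) of the skin around it. Per the labels, the skin was taken from the backs of CD1 females on postnatal day 16, in early catagen, the regression phase of the hair cycle, with 2 biological replicates of each population and no genetic change or treatment named for any of them. Flow cytometry separated the populations, by markers for which no source used here gives a name, and 6 ng of RNA per library was amplified (NuGEN Ovation) before sequencing.

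Classical cadherins bind the same or a related cadherin on the next cell, and their cytoplasmic tails bind beta-catenin and p120-catenin, which tie them to alpha-catenin and actin. Protocadherins have cadherin repeats but different tails that do not bind beta-catenin, and their best known roles are in the nervous system. Most of them lie in the alpha, beta and gamma clusters, where many similar first exons or whole genes stand in a row. In hair follicles, E-cadherin and P-cadherin are known from the epithelium, whereas N-cadherin and cadherin 11 are known from mesenchyme.

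Most markers of each population were highest under its label, with some exceptions. Of 10 contractile and dermal sheath markers, 9 were called higher in DS than in DF and 1, Abcc9, lower, by the rule given further on, and Acta2, smooth muscle actin, stood at 985 and 1098 RPKM (reads scaled by transcript length and by library size) in DS, against 3.83 and 3.57 RPKM in DP and 2.08 and 2.40 RPKM in DF. All 12 papilla markers were called higher in DP than in DF, although Corin, on that list, was higher in DS (529.6 and 518 RPKM) than in DP (183 and 244 RPKM). Of 10 fibroblast markers, 8 were called lower in DS than in DF and 1, Pdgfra, higher, and 8 were called lower in DP than in DF and 1, Dpp4, higher. Estimated depth was lowest in the DS libraries, at 0.390 and 0.462 of the deepest library, against 0.618 and 0.500 in DP and 0.726 and 1 in DF, and 1 RPKM on a 3 kb transcript stood for about 26.8 to 68.6 reads. A microRNA gene, Mir6236, held 46.6% to 77.1% of each library's summed RPKM, and the median gene differed by 0.53 (DS minus DF), 0.71 (DP minus DF) and -0.17 (DS minus DP) on the log2 scale. Dividing each library by a median-ratio size factor, called median-ratio scaling from here on, brought these medians to 0.00, 0.02 and 0.00. Its effect on calls of members and pathway genes is given by gene or by count, and for markers only in part. Of the fibroblast markers, it left 0 called higher and 8 lower in DP than in DF, so the Dpp4 call ended.

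The populations differed in the RNA of some leading members and shared others. By mean RPKM among the members, Cdh11 ranked 2 in DS, 1 in DP and 2 in DF, and Pcdhgc3 ranked 4, 2 and 3. Summed RPKM over all member genes was 1152 and 1206 in DS, 485 and 496 in DP, and 327 and 337 in DF. In DS, Cdh13 held 43.2% ± 0.858 of this sum, Cdh11 26.1% ± 0.740 and Pcdh7 10.6% ± 0.0349 (SD, n = 2 here and below). In DP the gamma cluster held 36.2% ± 2.32, Cdh11 21.1% ± 2.55 and the beta cluster 13.0% ± 0.359. In DF Cdh4 held 30.2% ± 1.06, the gamma cluster 28.3% ± 0.654 and Cdh11 11.1% ± 0.984. These shares are taken within a library and do not move with the scaling of libraries, and the leading gene, Cdh13 in DS, Cdh11 in DP and Cdh4 in DF, was the same in both replicates.

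**Figure D1:**
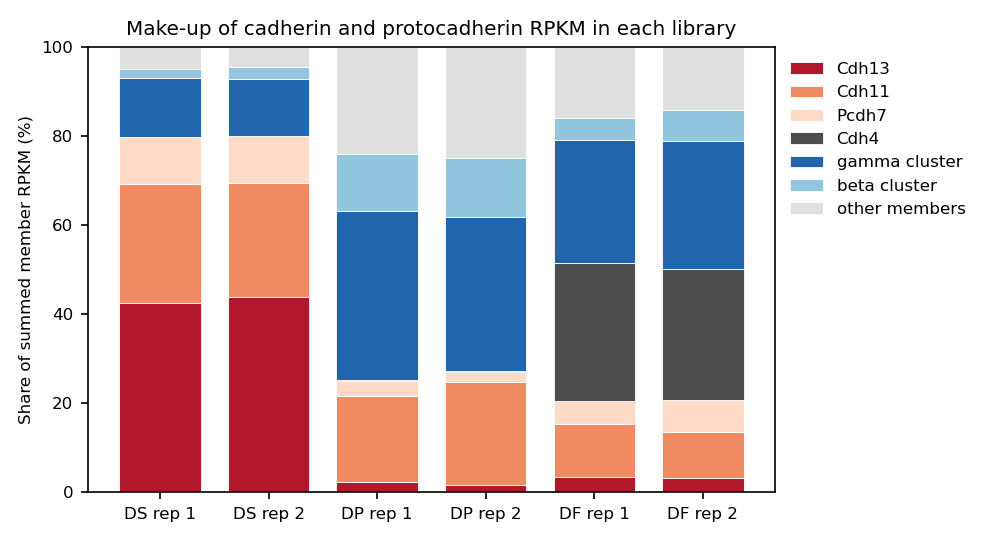
Share of the summed RPKM of all cadherin and protocadherin genes, in percent, held by the leading genes and by the beta and gamma clusters, as stacked bars for each of the 6 libraries. Cdh13 averages 43.2% in DS, the gamma cluster 36.2% in DP and Cdh4 30.2% in DF.

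Of the 89 genes above 0, 59 had 1 RPKM or more in 2 or more libraries, and limma was run on these as log2(RPKM + 1), a scale that understates the change of low genes. A gene was called where the adjusted p over all 14664 genes tested was under 0.05 and the log2 difference at least 1 in size. Between DS and DF, 7 members were called higher in DS and 6 lower, where 20.6% and 5.95% of all genes tested were called in those directions. Between DP and DF, 30 were called higher in DP and 3 lower, against 31.5% and 6.87% of all genes. Between DS and DP, 6 were called higher in DS and 14 lower, against 9.42% and 12.8% of all genes. Median-ratio scaling gave 5 higher and 6 lower for DS against DF (8.01% and 9.93% of all genes), 7 and 5 for DP against DF (9.33% and 13.0%), and 6 and 10 for DS against DP (11.5% and 9.81%). The median log2 difference over the 59 members was 0.31 between DS and DF, 1.0 between DP and DF, and -0.65 between DS and DP. A gene that passed the filter only through the population where it is high had to differ, so its adjusted p adds no support. These counts are therefore a description of the 59 and not of all 93. In sorted bulk samples, fewer cells expressing a gene and less of its RNA per cell cannot be told apart.

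Among the 5 type I classical cadherins, which share the tail that binds catenins, DP carried Cdh2 and DF carried Cdh4. Cdh2, N-cadherin, the classical cadherin of neural and many mesenchymal cells, was at 0.194 and 0.117 RPKM in DS, 16.1 and 15.7 RPKM in DP, and 0.335 and 0.737 RPKM in DF. DP stood far above the other populations, which were both under 1 RPKM, so Cdh2 passed the filter only through DP and had to differ once tested. The log2 difference was 3.47 (SE 0.22) for DP minus DF, with adjusted p = 0.000296, and -3.87 for DS minus DP, with adjusted p = 0.000187. Cdh4, R-cadherin, named for the retina, was at 0.0812 and 0.0548 RPKM in DS, 1.31 and 1.35 RPKM in DP, and 101 and 99.2 RPKM in DF. It was among the most sharply restricted members, with DF libraries within 2 RPKM of each other and no overlap with any other library. The log2 difference was -6.57 (SE 0.18) for DS minus DF, with adjusted p = 5.12e-05, and -5.44 for DP minus DF, with adjusted p = 8.47e-05. DS was also called below DP by 1.13 on the log2 scale (adjusted p = 0.0067), but the call ended under median-ratio scaling (-0.94) and under TPM scaling (-0.95), by its size alone, with adjusted p between 0.000991 and 0.0409 over all alternatives. Cdh15, M-cadherin of skeletal muscle precursors, was listed at 0 in all 6 libraries.

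The type II classical cadherins, 13 genes known mostly for sorting cell groups in the nervous system and kidney, differed most in Cdh11, Cdh22, Cdh18, Cdh6 and Cdh9. Cdh11, cadherin 11 or OB-cadherin, a mesenchymal cadherin also known from osteoblasts and synovium, was at 307 and 308 RPKM in DS, 93.8 and 114 RPKM in DP, and 38.6 and 35.1 RPKM in DF. It was high in every library and ranked DS, DP, DF without overlap. The log2 difference was 3.03 (SE 0.14) for DS minus DF (adjusted p = 0.000144) and 1.57 for DS minus DP (adjusted p = 0.000917). For DP minus DF it was 1.46 (adjusted p = 0.00104) with the deposited values and 0.63 (adjusted p = 0.0577) under median-ratio scaling, where the call ended; over all alternatives that p lay between 0.000586 and 0.0577.

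Cdh22, a type II cadherin known from the brain and pituitary, was listed at 0 in both DS libraries, at 15.1 and 21.2 RPKM in DP, and at 0.235 and 1.03 RPKM in DF. Cdh18, a type II cadherin known from the brain, was listed at 0 in both DS libraries too, at 8.74 and 9.02 RPKM in DP, and at 2.22 and 1.25 RPKM in DF. Both genes were thus high in DP, low in DF and not seen in DS. Cdh22 passed the filter only through DP and had to differ once tested. DP exceeded DF by 3.58 (SE 0.31) on the log2 scale for Cdh22 (adjusted p = 0.000723) and by 1.88 (SE 0.24) for Cdh18 (adjusted p = 0.00229), and DS was called below DP for both genes (adjusted p = 0.000455 and 0.000412). Cdh18 was also called lower in DS than in DF (adjusted p = 0.00685), with the difference under the size threshold after TPM scaling (-0.84, adjusted p = 0.0161); over all alternatives that p lay between 0.00177 and 0.0399. With DS listed at 0, the size of these differences from DS is set by the pseudocount, so no fold is given.

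The promoter of Cdh22 is shown as the most GC-rich of those printed here. It comes from RefSeq for the GRCm38.p6 build at chr2:165234688-165234987 on the minus strand, runs 5′ to 3′ from 250 bases before the annotated start to 50 after, and holds 76.33% G and C and 38 CpG, where the median of 32851 mouse promoters was 52.67% and 7 CpG. Capitals mark a GC box match (GGGCGG, searched on both strands) at positions -171 to -166, counted from 0 at the start, a motif found in 35.7% of all promoters.
Cdh22: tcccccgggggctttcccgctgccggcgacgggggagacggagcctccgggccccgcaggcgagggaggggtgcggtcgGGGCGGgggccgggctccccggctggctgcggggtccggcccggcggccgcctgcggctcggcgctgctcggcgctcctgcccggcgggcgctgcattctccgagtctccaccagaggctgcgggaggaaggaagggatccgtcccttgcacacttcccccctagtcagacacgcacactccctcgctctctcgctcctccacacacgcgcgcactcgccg

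Cdh6, K-cadherin, known from the kidney, was at 0.557 and 0.543 RPKM in DS, 7.0 and 6.93 RPKM in DP, and 5.25 and 5.22 RPKM in DF. It thus separated DS from the other populations and was called lower in DS than in DF, by 2.01 on the log2 scale (SE 0.18, adjusted p = 0.000987), and lower in DS than in DP, by 2.36 (adjusted p = 0.000531). Between DP and DF it was not called (0.35, adjusted p = 0.142), and the sign turned under median-ratio scaling (-0.38). Cdh9, a type II cadherin known from the brain and kidney, was at 3.16 and 2.43 RPKM in DS, listed at 0 in both DP libraries, and at 0.0190 and 0.0222 RPKM in DF. It was low but found almost wholly in DS, with adjusted p = 0.0013 for DS minus DF (log2 difference 1.89) and 0.0012 for DS minus DP. Cdh9 passed the filter only through DS and had to differ once tested, so these p-values add no support. Cdh24 was at 2.06 and 2.11 RPKM in DP and 0.831 and 0.297 RPKM in DF, a log2 difference of 1.0 (adjusted p = 0.0187) that was not called under median-ratio scaling (0.56) or without DP replicate 1 (1.01), DP replicate 2 (0.99) or DF replicate 2 (0.75). In all, 8 of the 13 type II genes were tested: 2 were called higher and 2 lower for DS against DF, 4 higher and 0 lower for DP against DF, and 2 higher and 3 lower for DS against DP. The shares over all genes were 20.6% and 5.95%, 31.5% and 6.87%, and 9.42% and 12.8%, and under median-ratio scaling the count for DP against DF was 2 higher and 0 lower. The other 5, Cdh7, Cdh8, Cdh12, Cdh19 and Cdh20, stayed under 1 RPKM in every library.

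The divergent cadherins lack the classical tail, and the highest value of any member gene was among them. Cdh13, T-cadherin, has no transmembrane or cytoplasmic part, is held to the membrane by a lipid anchor, and is known from vascular smooth muscle and endothelium, where it binds adiponectin. It was at 491 and 528 RPKM in DS, 11.1 and 8.80 RPKM in DP, and 11.4 and 10.6 RPKM in DF. The DS mean was 46.3 times the DF mean and 51.3 times the DP mean, while DP and DF overlapped. The log2 difference was 5.41 (SE 0.16) for DS minus DF (adjusted p = 6.07e-05) and 5.55 for DS minus DP (adjusted p = 3.79e-05); for DP minus DF it was -0.14 (adjusted p = 0.465), and its sign turned under TPM scaling (0.48) and without DP replicate 2 (0.01).

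Markers of the vessel wall were measured beside Cdh13. The 10 endothelial markers summed to 46.1 to 61.4 RPKM in DS, 28.1 to 46.2 RPKM in DP and 10.5 to 11.3 RPKM in DF, and of 8 tested, 1 was called higher in DS than in DF and 0 lower. Most of the DS sum was Erg, at 38.0 and 38.3 RPKM in DS, whereas Pecam1 was at 2.74 and 0.230 RPKM in DS, and Emcn and Cldn5 were listed at 0 in DS replicate 2. The 8 pericyte markers summed to 154 to 168 RPKM in DS, 145 to 153 RPKM in DP and 19.8 to 22.3 RPKM in DF, with 2 of 7 tested called higher and 3 lower in DS than in DF, and Kcnj8 and Higd1b listed at 0 in DS replicate 2. The part of vessel wall cells in the Cdh13 values was not tested.

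Cdh23 and Pcdh15 are known as partners that together form the tip link of hair cells in the inner ear, and both were highest in DP. Each passed the filter only through DP and had to differ once tested. Pcdh15, protocadherin 15, was listed at 0 in both DS libraries, at 21.4 and 16.8 RPKM in DP, and at 0.291 and 0.486 RPKM in DF. DP exceeded DF by 3.85 (SE 0.22) on the log2 scale (adjusted p = 0.000238), and DS was called below DP (adjusted p = 0.000143). Cdh23 was at 0.775 and 0.475 RPKM in DS, 2.88 and 5.98 RPKM in DP, and 0.0847 and 0.757 RPKM in DF. The DP libraries lay above all others but differed from each other, and each call of Cdh23 ended in some fits with a library left out. Such fits have fewer residual degrees of freedom, so a lost call does not show that it rested on that library. The log2 difference was 1.92 (SE 0.38) for DP minus DF (adjusted p = 0.00897), and that call ended without DF replicate 1 (1.57, adjusted p = 0.0529; 0.00323 to 0.0529 over the alternatives). For DS minus DP it was -1.69 (adjusted p = 0.0222), and that call ended without DS replicate 1 (-1.82), without DS replicate 2 (-1.55), without DP replicate 2 (-1.26) and with a pseudocount of 0.1, with adjusted p between 0.0149 and 0.1 over the alternatives. Of the other divergent genes, Cdh16 lay between 0.632 and 3.41 RPKM and was not called in any comparison, and Cdh17 and Cdh26 were not tested; Cdh26 was at 1.282 and 0.649 RPKM in DS, listed at 0 in DP, and at 0.301 and 0.398 RPKM in DF.

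The promoter of Pcdh15, at chr10:73821617-73821916 on the plus strand (RefSeq, GRCm38.p6), is shown because it held a TATA box match, which 13.6% of all promoters have. Capitals mark an E-box match (CAGGTG or its complement CACCTG, in 20.2% of promoters) at positions -102 to -97 and the TATA box match (TATAAA) at -33 to -28. It held 50.67% G and C and 8 CpG.
Pcdh15: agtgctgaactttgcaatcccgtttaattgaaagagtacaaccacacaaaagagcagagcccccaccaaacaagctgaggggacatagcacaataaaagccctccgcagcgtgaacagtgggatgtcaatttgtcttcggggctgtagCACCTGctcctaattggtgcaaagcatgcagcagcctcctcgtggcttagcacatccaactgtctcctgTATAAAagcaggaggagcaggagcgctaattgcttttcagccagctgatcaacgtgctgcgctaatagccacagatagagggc

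**Figure D2:**
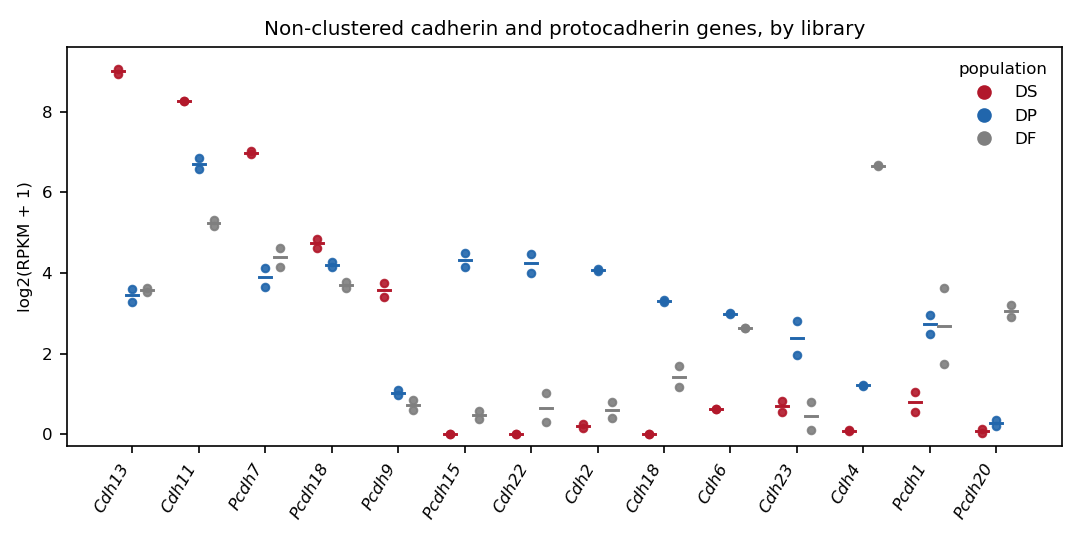
Level of each non-clustered cadherin or protocadherin that reached 5 RPKM, as log2(RPKM + 1) on the vertical axis, with a point per library and a bar at each population's mean (n = 2). Cdh13, Cdh11, Pcdh7, Pcdh18 and Pcdh9 are highest in DS, the set from Pcdh15 to Cdh23 in DP, and Cdh4 and Pcdh20 in DF.

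The delta protocadherins are non-clustered genes with conserved tail motifs, known from axon guidance and cell movement, and of the 8 tested, 3 were called higher and 2 lower in DS than in DF, where 20.6% and 5.95% of all genes were. Under median-ratio scaling these were 2 and 2. Pcdh7, BH-protocadherin, was at 122 and 128 RPKM in DS, 16.5 and 11.6 RPKM in DP, and 16.8 and 23.8 RPKM in DF. DS was set apart, at 6.16 times the DF mean and 8.90 times the DP mean. The log2 difference was 2.58 (SE 0.24) for DS minus DF (adjusted p = 0.00105) and 3.09 for DS minus DP (adjusted p = 0.000536). For DP minus DF it was -0.50 (adjusted p = 0.118), a difference that was called under median-ratio scaling (-1.30, adjusted p = 0.00419; 0.00419 to 0.536 over the alternatives) and turned sign under TPM scaling (0.17). Pcdh9 was at 12.5 and 9.66 RPKM in DS, 1.15 and 0.951 RPKM in DP, and 0.508 and 0.799 RPKM in DF. DS again stood far above, by 2.87 (SE 0.23) over DF on the log2 scale (adjusted p = 0.00065) and by 2.55 over DP (adjusted p = 0.000846). Pcdh9 passed the filter only through DS and had to differ once tested.

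Pcdh18, a delta-2 protocadherin, varied less, at 23.6 and 27.8 RPKM in DS, 18.4 and 16.6 RPKM in DP, and 11.5 and 12.8 RPKM in DF. The log2 difference for DS minus DF was 1.02 (SE 0.17, adjusted p = 0.0068), and the call ended under median-ratio scaling (0.42, adjusted p = 0.108), without DS replicate 2 (0.91, adjusted p = 0.0501) and without DF replicate 1 (0.95), with adjusted p between 0.00294 and 0.108 over the alternatives. Pcdh17 and Pcdh10, both delta-2 protocadherins, were called lower in DS than in DF. Pcdh17 was at 0.104 and 0.0727 RPKM in DS, 0.147 and 0.198 RPKM in DP, and 1.275 and 1.63 RPKM in DF, and it was called lower in DP than in DF as well (log2 difference -1.06, adjusted p = 0.0056). Pcdh17 passed the filter only through DF and had to differ once tested. Both of its calls fell under the size threshold under TPM scaling (-0.66 and -0.56), and that for DP minus DF also without DF replicate 2 (-0.96). Pcdh10 was at 0.0293 and 0.0491 RPKM in DS, 1.04 and 2.2 RPKM in DP, and 1.97 and 1.61 RPKM in DF, and its call against DF (-1.42, adjusted p = 0.01) ended without DF replicate 1 (-1.33) and under TPM scaling (-0.83). Pcdh11x was called higher in DP, at 1.14 and 1.12 RPKM, than in DF, where it was listed at 0 in both libraries; that difference fell under the size threshold under median-ratio (0.91) and TPM (0.90) scaling.

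Pcdh1 was at 0.477 and 1.06 RPKM in DS, 4.603 and 6.805 RPKM in DP, and 11.3 and 2.33 RPKM in DF. The DF replicates differed more from each other than from DP, and no difference was called: -1.87 for DS minus DF (adjusted p = 0.0564) and -1.92 for DS minus DP (adjusted p = 0.0658). The first was called without DF replicate 2 (-2.82, adjusted p = 0.0111; 0.0111 to 0.19 over the alternatives), and the second without DF replicate 1 (adjusted p = 0.0156) and without DF replicate 2 (adjusted p = 0.0158; 0.0154 to 0.231 over the alternatives). For DP minus DF the value of 0.05 turned sign without DP replicate 2 (-0.19), without DF replicate 2 (-0.90) and under median-ratio scaling (-0.67). Pcdh19 lay between 2.64 and 4.49 RPKM with no call, and Pcdh8 reached at most 0.0547 RPKM.

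Among the remaining non-clustered protocadherins, Pcdh20 was at 0.0951 and 0.0159 RPKM in DS, 0.151 and 0.283 RPKM in DP, and 8.27 and 6.47 RPKM in DF. It was a DF gene in these libraries, with log2 differences of -2.98 (SE 0.21) for DS minus DF (adjusted p = 0.000439) and -2.78 for DP minus DF (adjusted p = 0.000462). Pcdh20 passed the filter only through DF and had to differ once tested. Pcdh12, known from endothelium, stayed at or under 0.148 RPKM.

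The promoters of Pcdh7, Pcdh9 and Pcdh20 are set side by side because the first pair were called higher in DS than in both other populations and the last was called higher in DF than in both. All are from RefSeq for GRCm38.p6: Pcdh7 at chr5:57717831-57718130 on the plus strand, Pcdh9 at chr14:93890630-93890929 on the minus strand and Pcdh20 at chr14:88471347-88471646 on the minus strand. They held 59.33%, 62.67% and 43.67% G and C and 11, 18 and 4 CpG. The capitals in Pcdh7 mark an E-box match (CAGGTG) at positions 32 to 37, and the sequences of Pcdh9 and Pcdh20 held no match to any motif searched, which were also CATTCC (in 14.7% of all promoters) and the CArG box of serum response factor (in 1.63%). None of the 22 member genes with a promoter available here had a CArG box match in this window. Cdh13, Cdh11, Cdh4 and the clustered genes are not among these 22, so they were not searched.
Pcdh7: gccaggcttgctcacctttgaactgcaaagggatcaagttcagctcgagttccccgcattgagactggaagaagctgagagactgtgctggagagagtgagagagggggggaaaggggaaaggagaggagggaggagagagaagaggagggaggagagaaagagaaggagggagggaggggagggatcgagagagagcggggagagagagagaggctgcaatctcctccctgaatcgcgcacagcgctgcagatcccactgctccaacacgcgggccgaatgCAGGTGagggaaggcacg
Pcdh9: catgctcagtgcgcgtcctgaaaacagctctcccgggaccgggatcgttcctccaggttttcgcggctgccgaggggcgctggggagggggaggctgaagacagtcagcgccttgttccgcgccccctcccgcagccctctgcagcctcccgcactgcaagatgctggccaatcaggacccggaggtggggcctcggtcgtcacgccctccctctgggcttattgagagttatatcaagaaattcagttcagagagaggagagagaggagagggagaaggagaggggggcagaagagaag
Pcdh20: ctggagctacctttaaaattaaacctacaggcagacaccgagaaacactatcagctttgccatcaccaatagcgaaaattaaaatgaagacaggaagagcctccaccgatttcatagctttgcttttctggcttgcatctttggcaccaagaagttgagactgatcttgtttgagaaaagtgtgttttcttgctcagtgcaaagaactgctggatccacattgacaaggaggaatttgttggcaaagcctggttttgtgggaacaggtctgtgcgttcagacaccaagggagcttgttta

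The beta cluster of protocadherins was highest in DP as a sum, and most genes of the beta and gamma clusters were highest there too. The beta cluster summed to 23.8 and 31.0 RPKM in DS, 62.1 and 65.9 RPKM in DP, and 16.1 and 23.7 RPKM in DF. The gamma cluster summed to 151 and 155 RPKM in DS, 184 and 171 RPKM in DP, and 90.9 and 96.7 RPKM in DF. After median-ratio scaling the beta sums still separated, at 21.7 and 27.7 in DS, 47.9 and 52.0 in DP, and 25.3 and 29.7 in DF, whereas the gamma sums overlapped, at 138 and 138.4 in DS, 142 and 135 in DP, and 143 and 121 in DF. The alpha cluster was near the floor, at 1.03 and 1.5 RPKM in DS, 1.63 and 1.53 RPKM in DP, and 0.197 and 0.179 RPKM in DF. The beta genes are similar to each other, with an exon each, and alpha and gamma transcripts share their last exons. Some reads could thus be assigned to the wrong gene of a cluster, and the value of each gene is uncertain.

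Both DP libraries lay above the 4 others for 18 of the 22 beta genes and 15 of the 22 gamma genes, where the same held for 26.9% of all 24529 genes in the table. Under median-ratio scaling these counts were 13 of 22 and 12 of 22, against 15.5% of all genes. For alpha genes the count was 2 of 14 under both. Of 15 beta genes tested, 8 were called higher in DP than in DF and 0 lower, and of 19 gamma genes 13 and 0, against 31.5% and 6.87% of all genes. These counts fell to 1 and 0 for beta, and to 1 and 1 for gamma, under median-ratio scaling, against 9.33% and 13.0% of all genes. The median log2 difference for DP minus DF was 1.06 for beta and 1.05 for gamma genes, beside 0.71 for all genes, and under median-ratio scaling 0.56 and 0.36, beside 0.02 for all genes. Between DS and DF, 20.6% of all genes were called higher in DS and 5.95% lower. In that comparison 0 beta genes were called in either direction, and 1 gamma gene was called higher and 0 lower, a call that ended under median-ratio scaling.

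In the beta cluster, Pcdhb16 was at 3.36 and 4.37 RPKM in DS, 12.6 and 12.8 RPKM in DP, and 1.76 and 2.65 RPKM in DF. It stood out in DP, with log2 differences of 2.11 (SE 0.23) for DP minus DF (adjusted p = 0.00152) and -1.5 for DS minus DP (adjusted p = 0.00633), and the first was still called under median-ratio scaling (1.43; adjusted p 0.000486 to 0.0155 over the alternatives). Pcdhb17 was at 2.80 and 4.91 RPKM in DS, 8.69 and 9.88 RPKM in DP, and 2.55 and 3.38 RPKM in DF. Its DP libraries did not overlap the others, but its calls were fragile. That for DP minus DF (1.38, adjusted p = 0.00969) ended under median-ratio scaling (0.68, adjusted p = 0.0929), without DP replicate 2 (1.30, adjusted p = 0.0551) and without DF replicate 1 (1.23, adjusted p = 0.0558; 0.00207 to 0.0929 over the alternatives). That for DS minus DP (-1.12, adjusted p = 0.0315) ended in 8 of 13 alternatives, among them those without DS replicate 1 (-0.80), DP replicate 1 (-1.20), DP replicate 2 (-1.03) and either DF replicate (-1.12), with adjusted p between 0.0218 and 0.134. Pcdhb22 was at 3.89 and 4.06 RPKM in DS, 5.56 and 4.74 RPKM in DP, and 2.32 and 3.24 RPKM in DF, with no call in any comparison (DP minus DF 0.71, adjusted p = 0.0353). Pcdhb18 and Pcdhb6 were called higher in DP than in both other populations, as Pcdhb16 and Pcdhb17 were, and of these Pcdhb16 alone kept both calls under median-ratio scaling. Pcdhb1 was listed at 0 in all libraries, and Pcdhb2, Pcdhb3, Pcdhb4, Pcdhb9, Pcdhb10 and Pcdhb12 did not pass the filter.

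In the gamma cluster, Pcdhgc3 went against the order of most genes, and it was among 4 with their highest mean in DS. Pcdhgc3, a C-type gamma protocadherin, was at 62.6 and 66.6 RPKM in DS, 21.3 and 26.9 RPKM in DP, and 40.4 and 28.0 RPKM in DF. It was the highest gamma gene in every library and was highest in DS and lowest in DP. DS exceeded DP by 1.39 on the log2 scale (SE 0.22, adjusted p = 0.00672). DS minus DF was 0.92 (adjusted p = 0.0213), under the size threshold, and was called under TPM scaling (1.37) and without DF replicate 1 (1.18, adjusted p = 0.0233; 0.0073 to 0.52 over the alternatives). DP minus DF was -0.47 (adjusted p = 0.113), called under median-ratio scaling (-1.30, adjusted p = 0.0222; 0.0222 to 0.502 over the alternatives) and of the other sign under TPM scaling (0.22).

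Pcdhgb1 and Pcdhgb4 had the order seen in most gamma genes. Pcdhgb1 was at 9.15 and 9.999 RPKM in DS, 19.4 and 14.5 RPKM in DP, and 6.98 and 8.74 RPKM in DF. Pcdhgb4 was at 8.58 and 8.54 RPKM in DS, 19.5 and 16.1 RPKM in DP, and 5.47 and 9.21 RPKM in DF. DP lay above all other libraries for both. DP minus DF was 1.01 for Pcdhgb1 (adjusted p = 0.0115) and 1.21 for Pcdhgb4 (adjusted p = 0.0123). Both calls ended under median-ratio scaling (0.23 and 0.43), without DP replicate 1 (0.82 and 1.07) and without DF replicate 1 (0.87 and 0.88), with adjusted p up to 0.377 and 0.157. Pcdhgb8, at 4.59 and 4.27 RPKM in DS, 12.8 and 11.1 RPKM in DP, and 2.13 and 3.37 RPKM in DF, and Pcdhga2 were the gamma genes called higher in DP than in both other populations, and for Pcdhgb8 this held under median-ratio scaling as well. The calls for DS minus DP ended without either DS or either DP replicate, at -1.15 to -1.35 for Pcdhgb8 and -0.99 to -1.2 for Pcdhga2, and that of Pcdhga2 for DP minus DF ended under median-ratio scaling (0.50) and, just under the size threshold, without DF replicate 1 (0.999). Pcdhga10 was at 3.04 and 2.77 RPKM in DS, 0.153 and 1.37 RPKM in DP, and 0.868 and 0 RPKM in DF. It was the gamma gene called higher in DS than in DF (1.51, adjusted p = 0.0399). That call ended under median-ratio scaling (1.23), with a pseudocount of 0.1, with no filter, and without DS replicate 1 (1.46), DS replicate 2 (1.56), DF replicate 1 (1.96) or DF replicate 2 (1.06). Pcdhga7, Pcdhga12 and Pcdhgb2 did not pass the filter.

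No alpha gene reached 1 RPKM, and none was tested. The highest by mean were Pcdha5, at 0.215 and 0.180 RPKM in DS, 0.293 and 0.402 RPKM in DP, and 0.0228 and 0.0322 RPKM in DF; Pcdhac2, at 0.547 and 0.443 RPKM in DS, 0.0550 and 0.0139 RPKM in DP, and 0.0295 and 0 RPKM in DF; and Pcdha6, at 0 and 0.260 RPKM in DS, 0.234 and 0.164 RPKM in DP, and 0 in both DF libraries. At these low levels, Pcdha5 was lowest in DF and Pcdhac2 highest in DS, while Pcdha6 was at 0 in DS replicate 1 as in both DF libraries. Pcdha1 and Pcdha4 were listed at 0 throughout.

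**Figure D3:**
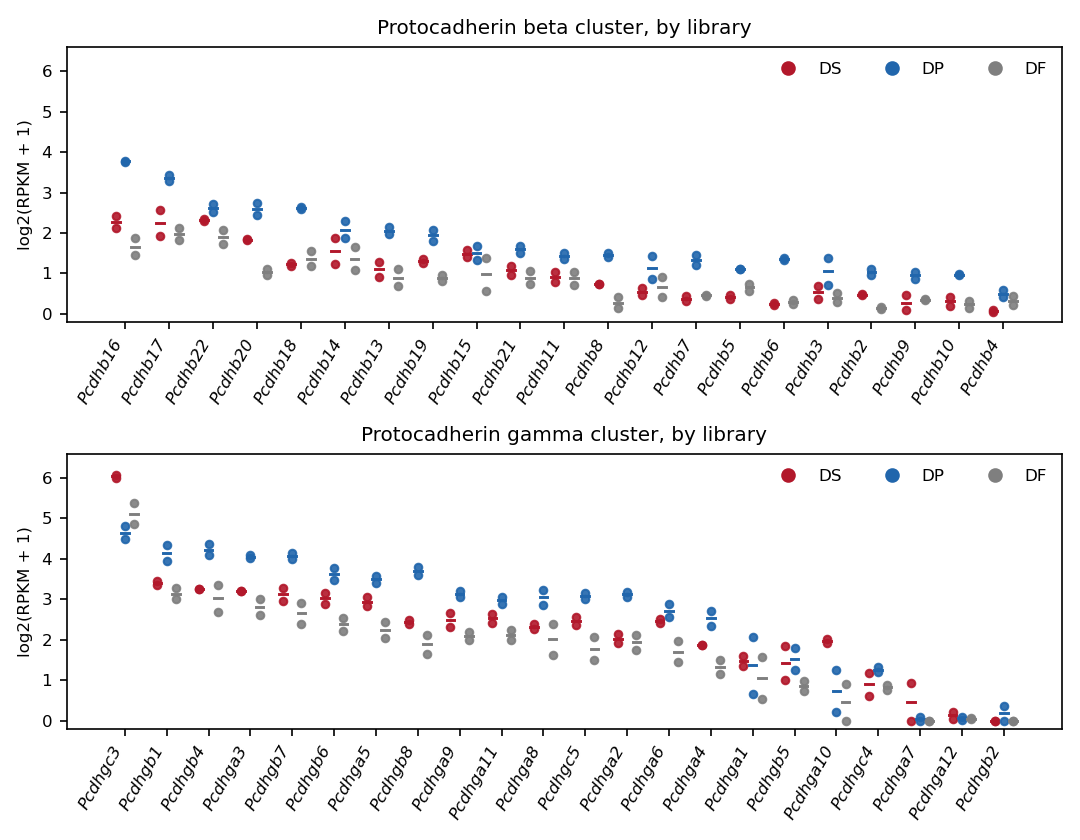
Levels of the beta and gamma protocadherin genes above 0, ordered by mean, as log2(RPKM + 1) on the vertical axis, with a point per library and a bar at each population's mean (n = 2). DP lies above all other libraries for 18 beta and 15 gamma genes, while Pcdhgc3 is highest in DS.

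Cadherins that mark other cell types of skin were low, and markers of those cells were measured beside them. Cdh1, E-cadherin of epithelium, was at 0.664 and 1.46 RPKM in DS, 2.22 and 1.71 RPKM in DP, and 1.48 and 1.65 RPKM in DF, with no call. Cdh3, P-cadherin of the follicle's epithelium, was at 0.791 and 0.909 RPKM in DS, 2.03 and 2.84 RPKM in DP, and 0.190 and 0.949 RPKM in DF, and was called higher in DP than in DF (1.16, adjusted p = 0.0194), a call that ended under median-ratio scaling (0.77), without DP replicate 2 (0.99) and without DF replicate 1 (0.81). The 13 keratinocyte markers, which include both genes, summed to 86.3 to 211 RPKM in DS, 151 to 173 RPKM in DP and 82.8 to 87.8 RPKM in DF. Of them, 5 were called higher in DP than in DF and 0 lower, and 1 and 0 under median-ratio scaling. Krt5, a basal keratin, was at 26.5 and 33.6 RPKM in DP and 12.1 and 14.2 RPKM in DF, and no marker of the list was at 0. The part of epithelial RNA in the DP values was not tested.

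Cdh5, VE-cadherin of endothelium, was at 2.16 and 0.220 RPKM in DS, 2.97 and 1.18 RPKM in DP, and 0.765 and 0.323 RPKM in DF, with no call. Pecam1, another endothelial gene, was at 2.74 and 0.230 RPKM in DS, 3.47 and 1.43 RPKM in DP, and 0.627 and 0.397 RPKM in DF, so that both were higher in replicate 1 of each population. Cdh19, known from Schwann cell precursors, reached at most 0.296 RPKM. The 8 Schwann cell markers summed to 4.29 to 11.6 RPKM in DS, 20.6 to 25.6 RPKM in DP and 5.48 to 10.5 RPKM in DF; most of the DP sum was S100b, at 13.4 and 13.7 RPKM, Sox10 was listed at 0 in DS replicate 1 and DP replicate 2, and Foxd3 in both DP libraries. Of 5 tested, 1 was called higher in DP than in DF and 0 lower. The part of endothelial and Schwann cell RNA in the values of the DP-high members was not tested. Leukocyte and melanocyte markers were measured beside the DF-high members. The 11 leukocyte markers summed to 17.6 to 25.6 RPKM in DS, 15.1 to 15.2 RPKM in DP and 51.1 to 73.1 RPKM in DF; of 9 tested, 0 were called higher and 6 lower in DS than in DF, and 0 higher and 7 lower in DP than in DF. C1qb was listed at 0 in both DP libraries, C1qa and C1qc in DP replicate 1, and Cd3e and Tyrobp in DS replicate 2. The 8 melanocyte markers summed to 58.4 to 68.6 RPKM in DS, 26.0 to 27.0 RPKM in DP and 33.4 to 49.9 RPKM in DF; of 7 tested, 1 was called higher and 3 lower in DS than in DF, and 1 and 3 in DP than in DF, and Tyrp1 and Sox10 were listed at 0 in DS replicate 1. The part of both in the DF-high results was not tested. Skeletal muscle markers summed to at most 2.36 RPKM in DS, 0.965 RPKM in DP and 0.661 RPKM in DF, and Myf5, like Cdh15, was listed at 0 throughout.

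The catenins and their relatives link classical cadherins to actin, and the main ones were lowest in DF. All 12 listed genes were tested: 7 were called higher and 0 lower for DS against DF, 7 higher and 1 lower for DP against DF, and 4 higher and 3 lower for DS against DP. Of all genes, 20.6% and 5.95%, 31.5% and 6.87%, and 9.42% and 12.8% were called in these directions. Under median-ratio scaling the counts became 5 and 0, 2 and 1, and 5 and 2, against 8.01% and 9.93%, 9.33% and 13.0%, and 11.5% and 9.81% of all genes; the lists that follow are to be read against the same shares. The median log2 difference was 1.48 for DS minus DF and 1.2 for DP minus DF, beside 0.53 and 0.71 for all genes. Ctnnb1, beta-catenin, which also carries Wnt signals, was at 183 and 174 RPKM in DS, 372 and 420 RPKM in DP, and 58.1 and 62.2 RPKM in DF. Its order was DP, DS, DF without overlap, with a log2 difference of 2.70 (SE 0.12) for DP minus DF (adjusted p = 0.000149), which was 1.85 and still called under median-ratio scaling. The calls for DS minus DF (1.55) and DS minus DP (-1.14) fell under the size threshold there, at 0.92 and -0.93.

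Alpha-catenin, p120-catenin and plakoglobin had their highest means in DS. Ctnna1, alpha-catenin, averaged 169 ± 2.76 RPKM in DS, 109 ± 0.297 RPKM in DP and 39.6 ± 3.30 RPKM in DF (n = 2), and Ctnnd1, p120-catenin, averaged 108 ± 1.99 RPKM in DS, 90.2 ± 6.28 RPKM in DP and 31.7 ± 6.36 RPKM in DF. Jup, plakoglobin, averaged 117 ± 2.58 RPKM in DS, 60.2 ± 4.83 RPKM in DP and 23.3 ± 4.06 RPKM in DF. All 3 were called higher in DS than in DF, also under median-ratio scaling, and higher in DP than in DF with the deposited values but not under median-ratio scaling. Vcl, vinculin, which binds alpha-catenin under tension, was at 125 and 123 RPKM in DS, 15.2 and 14.6 RPKM in DP, and 4.56 and 9.35 RPKM in DF. It had the largest difference on the list, 4.04 for DS minus DF (adjusted p = 0.000537). Arvcf, a p120-catenin relative, was at 44.8 and 40.1 RPKM in DS, 3.87 and 1.34 RPKM in DP, and 20.1 and 26.7 RPKM in DF, and was called lower in DP than in DF (-2.84, adjusted p = 0.00253).

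Of 11 desmosomal genes tested, 0 were called for DS against DF and 1 higher and 0 lower for DP against DF; for DS against DP 0 were higher and 2 lower, namely Dsc2 (-1.67, adjusted p = 0.00357), a desmosomal cadherin, and Dsg3 (-1.37, adjusted p = 0.0162), a desmosomal cadherin of stratified epithelium. Median-ratio scaling added 1 lower for DS against DF. Of 8 tested genes of the FAT, Dachsous and flamingo type, with Fjx1, 2 were called higher and 0 lower for DS against DF, 4 and 1 for DP against DF, and 0 and 3 for DS against DP; under median-ratio scaling these were 1 and 1, 3 and 2, and 1 and 3. Fjx1, a relative of the Drosophila kinase Four-jointed, which acts on Fat and Dachsous, was at 0.513 and 0.730 RPKM in DS, 13.9 and 14.1 RPKM in DP, and 0.346 and 0.675 RPKM in DF, and Dchs1, a giant cadherin that binds Fat4, was at 5.82 and 7.38 RPKM in DS, 19.7 and 20.5 RPKM in DP, and 4.26 and 4.05 RPKM in DF. Both were DP genes, with log2 differences for DP minus DF of 3.32 (adjusted p = 0.000315) and 2.03 (adjusted p = 0.000902), called under median-ratio scaling as well (2.82 and 1.284). Of 3 tested genes with other cadherin repeats, 1 was called higher for DS against DF (Ret, a receptor kinase, 1.78, adjusted p = 0.00194) and 1 higher for DP against DF (Clstn2, a calsyntenin, 1.41, adjusted p = 0.00249), with 0 lower in either comparison; for DS against DP 1 was higher and 1 lower. Under median-ratio scaling the Clstn2 difference fell under the size threshold (0.97), and the list then had 0 higher and 1 lower for DP against DF and 1 and 0 for DS against DP.

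Of 6 tested nectins and their linker, 2 were called higher for DS against DF (Nectin2, 1.97, adjusted p = 0.00133, and Afdn, the linker afadin, 1.25, adjusted p = 0.0401) and 0 lower; Nectin2 was also called higher for DP against DF (1.89, adjusted p = 0.00128). The Afdn call ended under median-ratio scaling (0.61), and its DS replicates were at 143 and 282 RPKM. Of 7 proteases that cut cadherins, 2 were called higher and 0 lower for DS against DF, 3 and 0 for DP against DF, and 0 and 1 for DS against DP, where 20.6% and 31.5% of all genes were called higher in the first and second; under median-ratio scaling the counts were 1 and 0, 0 and 0, and 0 and 1. Adam17, a sheddase, was 1.72 higher for DS minus DF (adjusted p = 0.00186; 1.10 and still called under median-ratio scaling), and Psen2, a gamma-secretase subunit, 1.70 higher for DP minus DF (adjusted p = 0.00177; 0.88 and not called under that scaling).

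Of 8 transcription factors known to repress E-cadherin, 2 were called higher and 1 lower for DS against DF, 4 and 1 for DP against DF, and 2 and 3 for DS against DP; under median-ratio scaling these were 1 and 2, 1 and 2, and 2 and 3. Snai1 was at 22.9 and 29.8 RPKM in DS, 80.3 and 101 RPKM in DP, and 10.6 and 10.3 RPKM in DF. Twist1 was at 37.6 and 42.8 RPKM in DS, 288 and 357 RPKM in DP, and 84.8 and 96.8 RPKM in DF. Both were highest in DP, but Twist1 was lower in DS than in DF, by 1.16 on the log2 scale (adjusted p = 0.00405), and Snai1 was higher there by 1.25 (adjusted p = 0.00565), a call that ended under median-ratio scaling (0.65). DP minus DF was 3.00 for Snai1 (adjusted p = 0.000326) and 1.81 for Twist1 (adjusted p = 0.000808), with 2.19 and 0.97 under median-ratio scaling, the second no longer called.

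Several members that are neighbours in the genome had different orders of populations. In RefSeq for GRCm38.p6, with no protein-coding gene between them, Cdh6 is followed by Cdh9, then Cdh10 and Cdh12, and Cdh18 comes after 1 further gene. Within this run Cdh6 was high in DP and DF, Cdh9 in DS, and Cdh18 in DP. Cdh10, between Cdh9 and Cdh12, was at 0.702 and 0.587 RPKM in DS, 1.31 and 1.01 RPKM in DP, and 0.331 and 0.524 RPKM in DF, and was not called. Pcdh20 and Pcdh9 are also next to each other, and the first was high in DF and the second in DS, while Pcdh17, with 2 protein-coding genes between it and Pcdh20, was likewise highest in DF. Cdh11 lies between Cdh8, which reached at most 0.626 RPKM, and Cdh5.

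**Figure D4:**
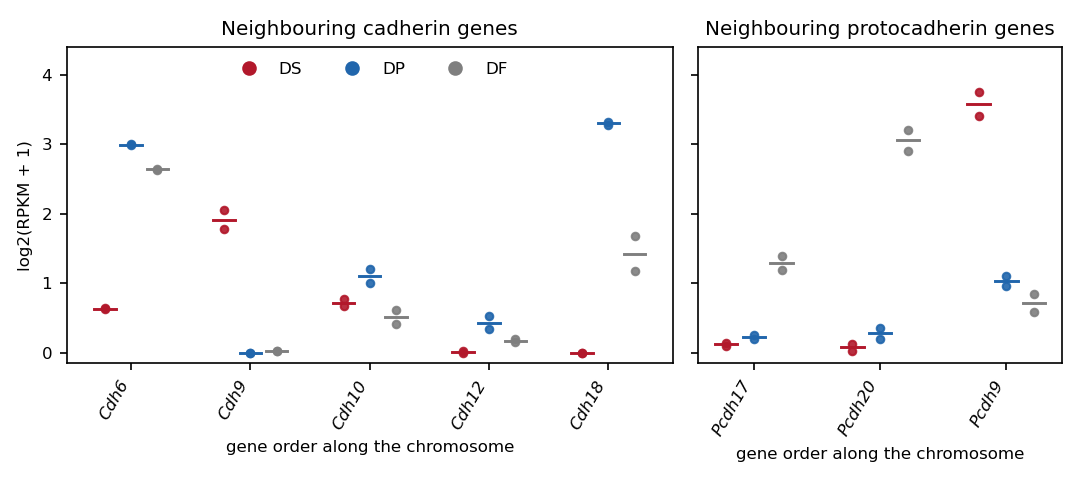
Levels of neighbouring cadherin and protocadherin genes, in their order along the chromosome, as log2(RPKM + 1) on the vertical axis, with a point per library and a bar at each population's mean (n = 2). Cdh9 is found in DS between genes that are low there, and Pcdh9 is highest in DS next to Pcdh20, which is highest in DF.

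In all, 19 members were called higher in a population than in both others: 5 in DS (Cdh13, Cdh11, Pcdh7, Pcdh9 and Cdh9), 11 in DP and 3 in DF (Cdh4, Pcdh20 and Pcdh17), where 6.03%, 10.1% and 3.41% of all genes tested had such calls. The DP set was Cdh2, Cdh22, Cdh18, Cdh23, Pcdh15, Pcdhb6, Pcdhb16, Pcdhb17, Pcdhb18, Pcdhgb8 and Pcdhga2. Median-ratio scaling left 5, 7 and 3 of them, and TPM scaling gave 6, 13 and 2. Some of the 19 passed the filter only through the population where they were high. In DS these were Cdh9 and Pcdh9, and in DF Pcdh17 and Pcdh20. In DP they were Cdh2, Cdh22, Cdh23, Pcdh15 and Pcdhb6. Such genes had to differ once tested, so the 19 are a description and cannot be weighed against the shares of all genes. Of the 35 calls among the 20 named genes tested, 25 held in every alternative that could be run for them. With 2 libraries a population an exact permutation test cannot give a p under 0.333, so the p-values rest on the spread that limma shares between genes.

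**Figure D5:**
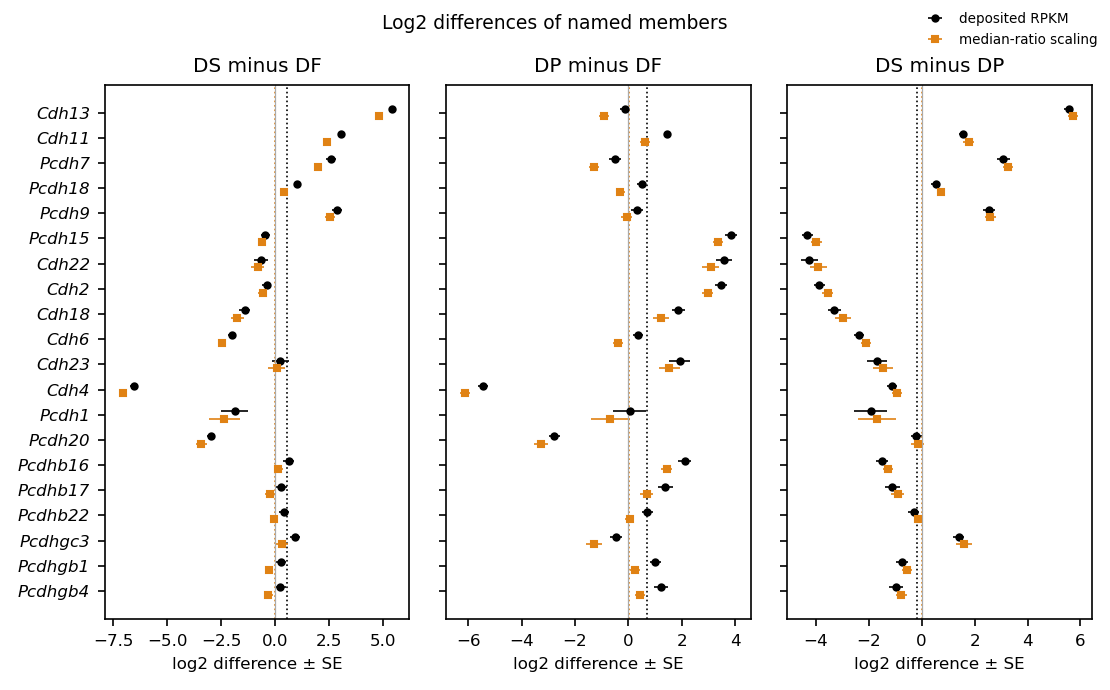
Log2 differences of the named members, with bars of 1 SE, for DS minus DF, DP minus DF and DS minus DP, from the deposited RPKM (black) and after median-ratio scaling (orange); dotted lines mark the median of all genes tested. For DP minus DF, Pcdhgb1 and Pcdhgb4 lie at 1.01 and 1.21 with the deposited values, and at 0.23 and 0.43 after median-ratio scaling.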

How the data were processed

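RNA of sorted DS, DP and DF cells was measured in 6 libraries, 2 biological replicates per population. The deposited values are RPKM per gene, which the authors computed for each library; replicates were not pooled. Salmon 1.9.0, DESeq2 1.28.1 and the GRCm39 build are named in the submitters' processing notes; neither the annotation nor the strand setting is given there. Depth was estimated from the smallest steps of genes with 1 transcript.

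All genes reaching 1 RPKM in 2 or more libraries were fitted as log2(RPKM + 1) in 1 limma 3.58.1 model (R 4.3.3) over all 6 libraries, with a mean-variance trend and Benjamini-Hochberg adjustment over 14664 genes; the model has 3 residual degrees of freedom, and the comparisons share libraries. It was tested on simulated data. Alternatives were a pseudocount of 0.1, no filter and a filter at 5 RPKM, median-ratio and TPM scaling (each library rescaled to the same total), a replicate block, leaving out each library, and fits on the 2 populations compared.

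The members and lists were chosen with earlier results of these data known. Named were non-clustered members with 5 RPKM in any library, the top 3 of each cluster by mean, and the pathway genes Ctnnb1, Ctnna1, Ctnnd1 and Jup with the 2 called genes of largest difference per list; members outside this rule were named after their values were seen. Of the genes, 22 matched the RefSeq promoter table. Sequences from mouse chromosome 18, where the clusters lie, are not reported here.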

Additional observations from a re-analysis of the deposited data

How the results depend on the processing

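Over all genes, 3899, 5620 and 3257 were called for DS against DF, DP against DF and DS against DP. TPM scaling gave 6309 for the first and 9108 for the second, and median-ratio scaling gave 3279 for the second, with 1368 higher and 1911 lower where the deposited values gave 4613 and 1007. Of the members, 33 were called for DP against DF; the filter at 5 RPKM left 21 of 29 tested, and median-ratio scaling 12. Leaving out a library gave 22 to 32 there, with the lowest count without DF replicate 1. Of 774 recomputed differences of named genes, 711 kept their direction and side of the threshold, 29 lost a call, 17 gained one and 17 changed sign.

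The sign turned under median-ratio scaling for DS minus DF in Pcdhb17 (-0.23), Pcdhb22 (-0.081), Pcdhgb1 (-0.31) and Pcdhgb4 (-0.33), and for DP minus DF in Cdh6 (-0.38), Pcdh18 (-0.30), Pcdh1 (-0.67) and Pcdh9 (-0.063). It turned under TPM scaling for DP minus DF in Pcdh7 (0.17), Cdh13 (0.48) and Pcdhgc3 (0.22). With a library left out, values spanned -0.055 (without DS replicate 2) to 0.58 for DS minus DF in Pcdhb17, -0.12 (without DF replicate 1) to 0.58 in Cdh23 and -0.095 (without DF replicate 1) to 0.56 in Pcdhgb4. For DP minus DF they spanned -0.90 (without DF replicate 2; -0.19 without DP replicate 2) to 0.99 in Pcdh1 and -0.29 to 0.0083 (without DP replicate 2) in Cdh13. None of these differences was called with the deposited values, and the cause was not tested.

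Libraries with the same replicate number showed no shared shift over all genes tested: deviations correlated at -0.03 (DS and DP), -0.07 (DS and DF) and -0.05 (DP and DF). These values cannot show whether such libraries came from the same animals or sort. The fit with the replicate block called 6 higher and 6 lower members for DS against DF, 29 and 3 for DP against DF, and 6 and 14 for DS against DP. Estimated depth was lowest in DS replicate 1, where 1 RPKM on a 3 kb transcript stood for about 26.8 reads, and values far under 1 RPKM rest on few reads.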
